A study of Mus musculus with 2 samples.

Results

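Contactins and L1 family proteins are cell adhesion molecules of the immunoglobulin superfamily, and their genes were described here in total RNA of the mouse neural tube at embryonic day 14.5. The members are Cntn1 to Cntn6 and L1cam, Chl1, Nrcam and Nfasc, chosen by gene symbol. All 10 were found among the 43346 gene rows of each of the 2 deposited libraries. The data are 1 group of 2 libraries from B6NCrl mice, with no contrast between conditions. Each library came from 10 ng of RNA of a single neural tube, taken from 1 pup of a different pregnant female, with spike-in RNA added. No genetic change or treatment is given for either. With 2 embryos and 1 condition no test was possible, so each value below is a description. An SD over the libraries has n = 2, and an interval beside a ratio covers counting error only.

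Contactins are anchored to the outer face of the membrane by a lipid and have no cytoplasmic part, so they signal through partners in the same membrane. L1 family proteins cross the membrane and bind ankyrins, which tie them to the spectrin skeleton under it. In the embryonic spinal cord both groups guide growing axons and hold them in bundles. Later they help build the node of Ranvier and the paranode, the gap and its flanks where myelin segments meet.

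The libraries held 32255343 and 25428728 expected counts in gene rows in replicates 1 and 2. All 12 postmitotic neuron markers and all 12 Hox genes of the trunk list reached 1 TPM (transcripts scaled for length and depth) in both, and none of 10 forebrain and midbrain genes did. The samples differed in the RNA level of marker genes of neighbouring tissues, and the cause was not tested. Summed over 11 meninges and fibroblast markers, the level was 104.8 and 1257 TPM, and over 13 dorsal root ganglion markers it was 239.1 and 637.6 TPM. Over 10 skeletal muscle genes it was 55.95 and 26.85 TPM. The labels give a pool of both sexes for each single pup. Xist RNA stood at 70.8 TPM in replicate 1 and 0.05 TPM in replicate 2, while the Y-linked Ddx3y had 1 and 1750 counts, so neither library matched that label.

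Several members are known for exons that are kept or skipped in particular cells, and those exons carry the isoform results below. The stretches shown are from GENCODE transcripts on GRCm38, written 5′ to 3′. Capitals mark the alternative exon, and the lower-case letters are the 20 bases of transcript on each side.
Nfasc 237-base exon (chr1:132588074-132588310, minus strand): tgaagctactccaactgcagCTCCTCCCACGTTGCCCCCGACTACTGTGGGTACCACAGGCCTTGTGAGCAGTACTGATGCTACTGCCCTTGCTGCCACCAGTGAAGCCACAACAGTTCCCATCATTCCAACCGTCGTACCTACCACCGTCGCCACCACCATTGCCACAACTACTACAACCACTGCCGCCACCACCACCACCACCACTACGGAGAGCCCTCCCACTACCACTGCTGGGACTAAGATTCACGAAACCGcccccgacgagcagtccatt
Nfasc 116-base exon (chr1:132600099-132600214, minus strand): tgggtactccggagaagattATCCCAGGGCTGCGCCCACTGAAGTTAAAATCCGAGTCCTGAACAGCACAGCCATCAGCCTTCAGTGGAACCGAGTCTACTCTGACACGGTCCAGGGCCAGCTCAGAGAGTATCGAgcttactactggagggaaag
Nfasc 18-base exon (chr1:132637864-132637881, minus strand): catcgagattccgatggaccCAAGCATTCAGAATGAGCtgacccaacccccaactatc
Nrcam 30-base exon (chr12:44566840-44566869, plus strand): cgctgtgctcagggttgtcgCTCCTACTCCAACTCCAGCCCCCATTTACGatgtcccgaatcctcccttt
Nrcam 36-base exon (chr12:44578145-44578180, plus strand): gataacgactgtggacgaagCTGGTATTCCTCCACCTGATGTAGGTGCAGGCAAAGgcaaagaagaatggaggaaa
Nrcam 9-base extension (chr12:44576781-44576789, plus strand): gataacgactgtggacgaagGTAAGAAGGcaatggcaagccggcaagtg
L1cam 15-base exon (chrX:73867022-73867036, minus strand): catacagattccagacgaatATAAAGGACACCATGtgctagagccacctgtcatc
L1cam 12-base exon (chrX:73855652-73855663, minus strand): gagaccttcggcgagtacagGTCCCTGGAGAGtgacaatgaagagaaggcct
The first Nfasc exon opens the mucin-like segment of neurofascin 186, the neuronal form, and the second starts the repeat that marks neurofascin 155, the glial form. The 36-base exon and the 9-base extension of Nrcam follow the same upstream bases, and the annotated transcripts carry one or the other. The 2 short L1cam exons lie in the extracellular and the cytoplasmic part, and both are known as exons that neurons keep and many other cells skip.

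All 10 members were expressed at 1 TPM or more in both libraries. Of all gene rows 34.7% reached that level, and of 21474 protein-coding gene rows 60.8% did, so a full count in a list of neuronal adhesion genes is read against a common outcome. The levels spanned from Cntn3 at 4.62 and 4.87 TPM to L1cam at 86.7 and 113.2 TPM in replicates 1 and 2. By their mean TPM, 92.3% of protein-coding rows lay below L1cam and 48.6% below Cntn3.

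**Figure D1:**
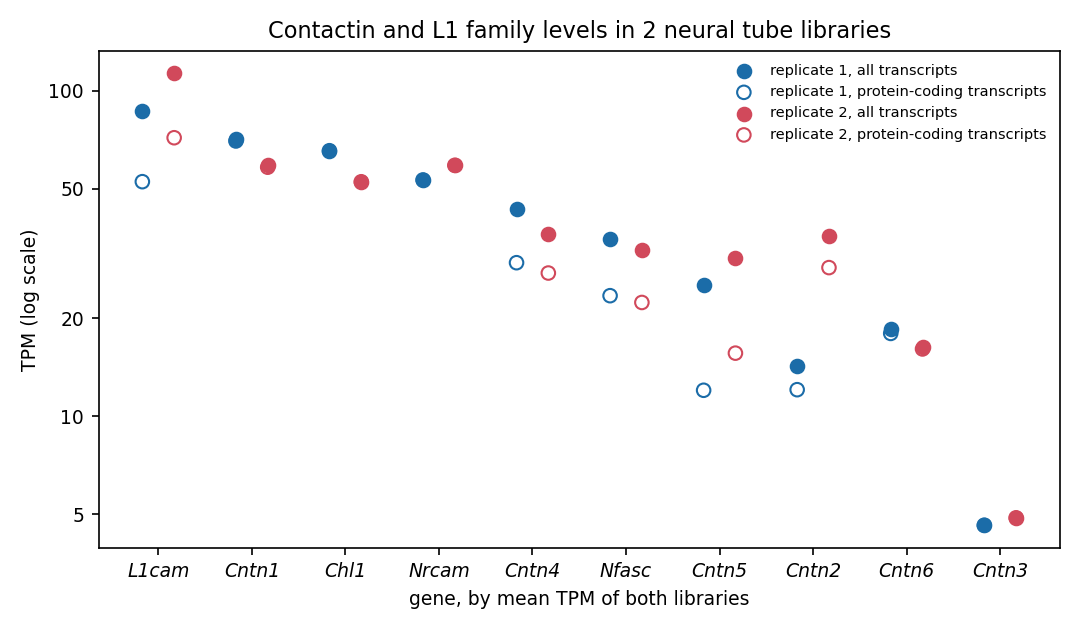
Level of each member in TPM (log scale) in replicate 1 (blue) and replicate 2 (red), summed over all annotated transcripts (filled) or over protein-coding transcripts (open). L1cam stood highest over all transcripts, at 86.7 and 113.2 TPM, and Cntn2 showed the widest gap between libraries, at 14.3 and 35.7 TPM.

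L1cam, the founding member of its family and a promoter of axon growth and bundling, had 86.7 TPM in replicate 1 and 113.2 TPM in replicate 2, a mean of 99.96 ± 18.7 (SD, n = 2). Chl1, the close homologue of L1, had 65.5 and 52.6 TPM. Nrcam, which acts in axon guidance at the midline and later at nodes, had 53.2 and 59.0 TPM. Nfasc, known for its part at the axon initial segment, node and paranode, was the lowest of the 4 at 34.9 and 32.5 TPM. Over all transcripts, the values of L1cam lay above those of the other 3 in both libraries, and those of Nfasc below them.

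Among the contactins, Cntn1 was the highest, with 71.2 and 59.0 TPM and a mean of 65.1 ± 8.66 (SD, n = 2). Cntn1 forms the paranodal junction with Cntnap1 in myelinated axons and binds receptor phosphatases and tenascins earlier. Cntn4, a regulator of axon growth that binds amyloid precursor protein, had 43.2 and 36.3 TPM. Cntn5 had 25.3 and 30.7 TPM, and Cntn6 had 18.5 and 16.3 TPM. Both belong to the group known for roles in synapse formation in sensory and motor circuits. Cntn2, also called TAG-1 and known from the first axons of commissural and sensory neurons, had 14.3 and 35.7 TPM. Cntn3 was the lowest at 4.62 and 4.87 TPM, below every other contactin in both libraries.

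Ordered by mean TPM, the members ran L1cam, Cntn1, Chl1, Nrcam, Cntn4, Nfasc, Cntn5, Cntn2, Cntn6 and Cntn3. The ranges of the libraries overlapped between Cntn1 and Chl1, between Chl1 and Nrcam, between Cntn5 and Cntn2 and between Cntn2 and Cntn6. The other neighbours in the order were separate in these 2 libraries. The median of the L1 family was 59.4 and 55.8 TPM and that of the contactins 21.9 and 33.2 TPM. On the log2(TPM + 1) scale, the family medians differed by 1.41 in replicate 1 and 0.73 in replicate 2.

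Gene TPM sums every annotated transcript, and short models that code for no protein weigh heavily on this scale because it divides by length. Such models held 52.5% and 49.1% of the TPM of Cntn5, 39.4% and 36.6% of that of L1cam, 32.8% and 31.2% of that of Nfasc and 31.4% and 24.2% of that of Cntn4. Those 4 of the 10 members held 20% or more there, beside 24.5% of the 12171 protein-coding genes that averaged at least 100 counts. Of the expected counts of Cntn5, by contrast, only 7.96% and 6.97% were in non-coding models. Chl1, Nrcam and Cntn3 have no annotated non-coding model, so the annotation left them no such share.

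The order changed when protein-coding transcripts alone were summed. L1cam, at 52.6 TPM in replicate 1, then lay below Chl1 and Nrcam in that library. Cntn1 stood first at 70.1 and 58.3 TPM, above L1cam at 52.6 and 71.8 TPM by its mean, though their libraries overlapped. Cntn5 moved from seventh place to the ninth, at 12.0 and 15.6 TPM. Cntn2 at 12.1 and 28.6 TPM and Cntn6 at 18.0 and 16.1 TPM stood above it by their means.

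Between the libraries, 1 of the 10 members passed 1.5-fold after scaling of the counts by the trimmed mean of M-values (TMM). It was Cntn2, higher in replicate 2, where 10.7% of 17623 gene rows that averaged at least 10 counts were also past 1.5-fold. No member was past 1.5-fold the other way, beside 8.53% of gene rows. Of 6567 rows that averaged at least 1000 counts, a depth that Cntn2 reached, 2.25% were past 1.5-fold and 0.868% past 2-fold in that direction. The median log2 ratio of the members was -0.06, and that of all gene rows past the count minimum was -0.01. Scaled by spike-in RNA, 4 members were past 1.5-fold higher in replicate 2 and none the other way, beside 44.1% and 2.36% of gene rows.

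**Figure D2:**
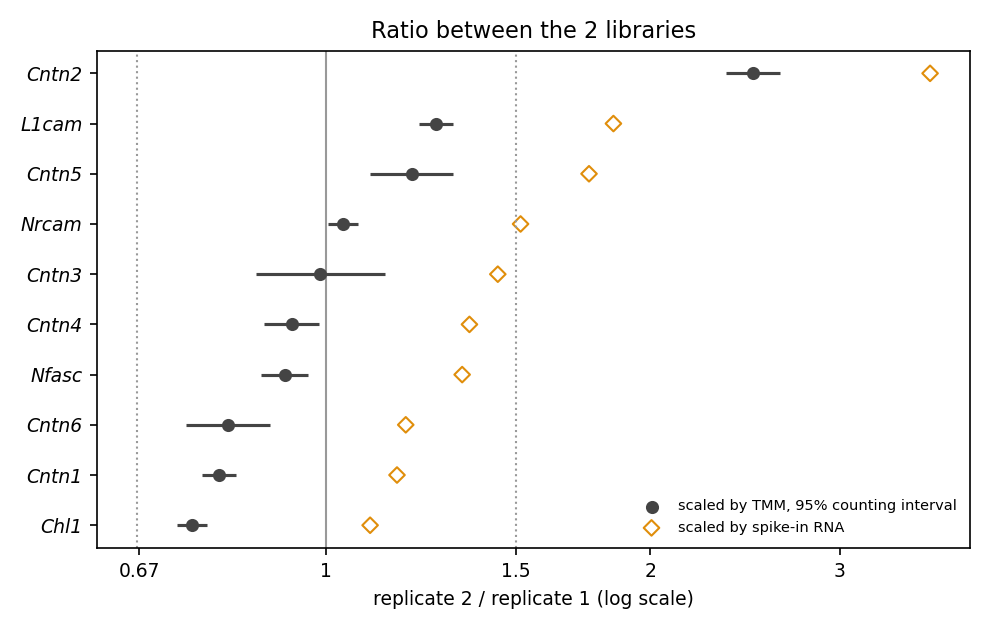
Ratio of replicate 2 to replicate 1 for each member (log scale), from counts scaled by TMM with the 95% counting interval (dark points and lines) or by spike-in RNA (open diamonds), with dotted lines at 1.5-fold. Cntn2 lay at 2.49, and the other 9 lay inside the dotted lines by TMM, while by spike-in scaling all 10 ratios were above 1.

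Cntn2 had 1773 expected counts in replicate 1 and 3485 in replicate 2. Its ratio was 2.49 (95% counting interval 2.35 to 2.64) by TMM and 3.64 by spike-in scaling, so replicate 2 was higher under both. The main coding transcript, Cntn2-201, had 11.0 and 28.6 TPM, and Cntn2-207, a model marked for nonsense-mediated decay, had 0.90 and 3.85 TPM. Both were higher in replicate 2. Nfasc, the member next to Cntn2 on chromosome 1, 21.4 kb away with no gene between them, had a ratio of 0.915 (0.869 to 0.962) by TMM.

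Cntn2 is known from commissural, motor and sensory axons, and fewer cells of a type and less RNA per cell cannot be told apart in bulk tissue. Of the 13 dorsal root ganglion markers 10 were past 1.5-fold higher in replicate 2 by TMM, beside 10.7% of gene rows. None of the 13 was at 0 in either library, but only 6 reached 1 TPM in both. Avil, an actin-binding protein gene of sensory neurons, stood at 0.12 and 22.1 TPM. Of 9 motor neuron markers 3 were past that fold, and these were Isl1, Isl2 and Prph, which sensory neurons also express. Of 8 commissural markers only Robo3 was, at 10.9 and 20.8 TPM, with a ratio of 1.85. The summed level of the commissural list was 222.5 and 234.6 TPM, but most of it was Nell2, at 172.4 and 175.2 TPM. The sum therefore says little about the other genes of the list. Whether any of these cells account for the Cntn2 values was not tested.

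L1cam had a ratio of 1.26 (1.22 to 1.31) by TMM and 1.85 by spike-in scaling, with 5855 and 5844 counts. It lies on the X chromosome, at chrX:73853778-73896105 on the minus strand. The 435 X-linked protein-coding genes that averaged at least 100 counts had a median log2 ratio of -0.02, and the 11736 on other chromosomes 0.01. A ratio at or above that of L1cam was found in 11.5% of the X-linked genes and 14.3% of the others.

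Chl1 had a ratio of 0.751 (0.727 to 0.775) by TMM but 1.10 by spike-in scaling, from 10152 and 6019 counts. The ratio of Cntn1 was 0.795 (0.767 to 0.825) by TMM and 1.16 by spike-in scaling. That of Cntn6 was 0.811 (0.741 to 0.886) and 1.19. Replicate 1 was therefore the higher library for these 3 genes by TMM, which is set over all gene rows, and the lower one by spike-in scaling. Spike-in scaling moved the median of all gene rows by 0.55 on the log2 scale. Cntn5, at 1.20 (1.10 to 1.31), and Nrcam, at 1.04 (1.00 to 1.07), lay above 1 by TMM, and the interval of Cntn3 held 1.

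Cntn3 and 3 other members lie close together on chromosome 6, in the order Cntn3, Chl1, Cntn6 and Cntn4. The gaps between them are 937.5, 742.6 and 814.3 kb, with no protein-coding gene in any of these. Their mean levels were 4.75, 59.0, 17.4 and 39.8 TPM in that order, so neighbours on the chromosome were far apart in level. The members' spans run from 33.8 kb for Cntn2 to 1244 kb for Cntn5, at chr9:9660891-10904775 on the minus strand. On GRCm38 the chromosome 6 genes lie at chr6:102162655-102573101 (Cntn3, minus strand), chr6:103510586-103750211 (Chl1, plus), chr6:104492790-104863406 (Cntn6, plus) and chr6:105677660-106699310 (Cntn4, plus). Cntn2 lies at chr1:132509427-132543256 and Nfasc at chr1:132564690-132741797, both on the minus strand. Cntn1 lies at chr15:92051165-92341967 and Nrcam at chr12:44328885-44601964, both on the plus strand. L1cam overlaps the annotation of Arhgap4, which had 133 and 140 counts, and of Avpr2, with 3 and 2 counts. Nfasc overlaps the antisense gene Gm10538, with 11 and 8 counts.

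The 10 members have 61 annotated transcripts in the files. Nfasc makes the best known pair of forms. Neurofascin 186 has a mucin-like segment and the fifth fibronectin repeat, encoded by 3 exons of 237, 117 and 153 bases, and lacks the third repeat. Neurofascin 155 has the third repeat, encoded by exons of 116 and 205 bases, and lacks the mucin-like segment. In the 237-base exon printed above, 33 of 78 whole codons had the form ACN, which codes for threonine, against 8.79% of the 1240 codons of the transcript that holds it. Threonine is an attachment site for sugars in mucin-like stretches.

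The neurofascin 186 type was the leading form. Its transcript, Nfasc-202, stood at 12.6 TPM in replicate 1 (deposited posterior bounds 11.5 to 12.9) and 13.7 TPM in replicate 2 (12.4 to 13.7). The 3 transcripts of the neurofascin 155 type summed to 1.71 and 1.44 TPM. A transcript with both segments, Nfasc-207, was at 1.90 TPM in replicate 1 (0.75 to 2.96). It was listed at 0 in replicate 2, with an upper bound of 0.54, so its bounds did not overlap between the libraries. The neurofascin 186 type therefore held 77.7% and 90.5% of the summed TPM of these transcripts, which are annotated across both segments, and the neurofascin 155 type 10.6% and 9.53%.

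**Figure D3:**
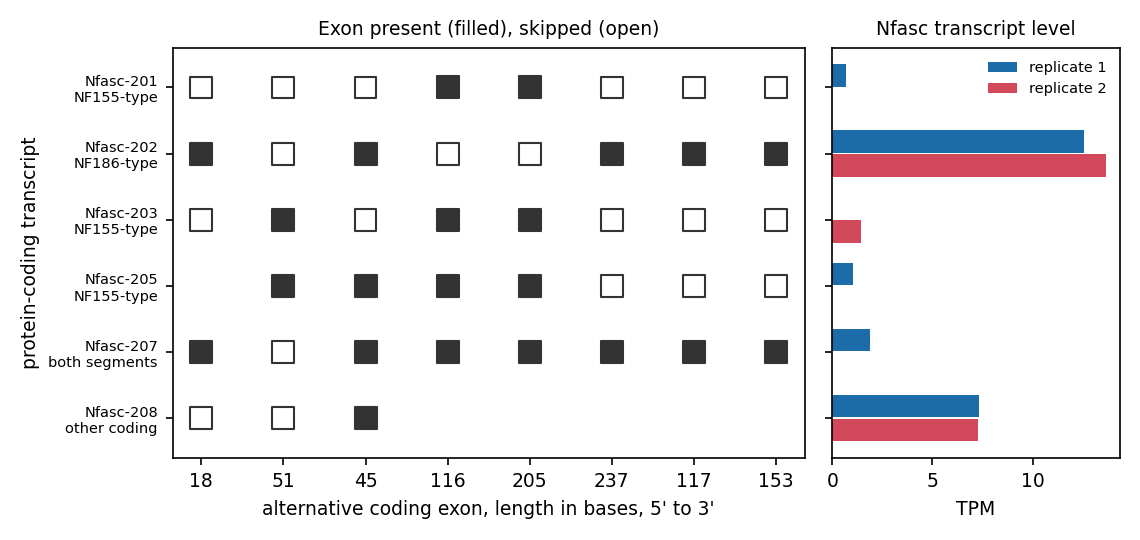
Protein-coding transcripts of Nfasc, with each alternative coding exon present (filled square), skipped (open square), or not spanned or held in a longer form (blank), and the transcript's TPM in replicate 1 (blue) and replicate 2 (red). Nfasc-202, the only one with the 237-, 117- and 153-base exons and without the 116- and 205-base pair, was the highest, at 12.6 and 13.7 TPM.

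The mucin-like exons were present in 89.9% ± 0.744 (SD, n = 2) of the TPM of transcripts that span them, and in 95.5% of their expected counts. The neurofascin 155 pair was present in 22.3% and 9.53% of TPM, a wider spread that followed the transcript listed at 0 in replicate 2. With Nfasc-208, a coding transcript that ends in a longer form of that exon, counted as holding it, the 116-base exon was in 46.5% and 38.9% of TPM. The transcripts of the neurofascin 155 type were listed unequally in the libraries, with overlapping deposited bounds. Nfasc-201 and Nfasc-205 were at 0.68 and 1.03 TPM in replicate 1 and listed at 0 in replicate 2, where Nfasc-203 had 1.44 TPM. The sum over the type differed less between the libraries than these transcripts did.

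Neurofascin 155 is made by oligodendrocytes and Schwann cells once they myelinate. In the list of oligodendrocyte precursor and myelin genes, 10 of 12 reached 1 TPM in both libraries, with a sum of 136.3 and 168.3 TPM. Mbp, which encodes a main protein of compact myelin, stood at 19.6 and 27.0 TPM, and Cnp at 32.6 and 40.3 TPM. Other myelin genes of the list were low, with Mog at 2.06 and 1.96 TPM and Mag at 1.87 and 2.04 TPM. Mobp, at 0.09 and 0.16 TPM, and Opalin, at 0.03 and 0 TPM, fell short of 1 TPM. Of 11 Schwann cell markers 9 were past 1.5-fold higher in replicate 2 by TMM, beside 10.7% of gene rows. The neurofascin 155 type stood at 1.71 and 1.44 TPM, from 138.7 and 81.87 expected counts. Whether oligodendrocytes or Schwann cells account for these values was not tested.

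Other Nfasc exons were used unequally too. The 45-base exon was present in 95.3% ± 2.50 (SD, n = 2) of TPM and the 51-base exon in 5.42% ± 1.45. The 18-base exon was present in 64.4% and 61.1% of TPM but in 83.9% and 83.1% of expected counts. Nfasc-208 was at 7.30 and 7.25 TPM. Its last exon is a longer form of the 116-base exon, so it holds the start of the third repeat but neither the 205-base exon nor the mucin-like segment, and it was placed in none of the forms above. The retained-intron transcripts Nfasc-206 and Nfasc-210 stood at 4.54 and 6.81 TPM and at 4.94 and 3.34 TPM. Nfasc-206 had the higher value in replicate 2 and Nfasc-210 in replicate 1.

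Nrcam had 2 annotated transcripts, both coding. Nrcam-201 stood at 43.8 TPM in replicate 1 (deposited bounds 39.0 to 45.0) and 45.9 TPM in replicate 2 (40.2 to 46.9). Nrcam-202 stood at 9.46 TPM (6.66 to 12.6) and 13.1 TPM (10.0 to 16.6). The bounds of the transcripts lay far apart within each library, and those of each transcript overlapped between libraries. Nrcam-201 therefore held 80.0% ± 3.15 (SD, n = 2) of the gene's TPM.

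The transcripts of Nrcam differ by the stretches shown above. Nrcam-201 has the 30-, 36- and 153-base exons, and Nrcam-202 has the 9-base extension in place of the 36-base exon and skips the other 2. The exons are those of GENCODE release 21, where both transcripts have other lengths than the 7572 and 7362 bases in the files. How far the exons of the files' own release differ was not tested.

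**Figure D4:**
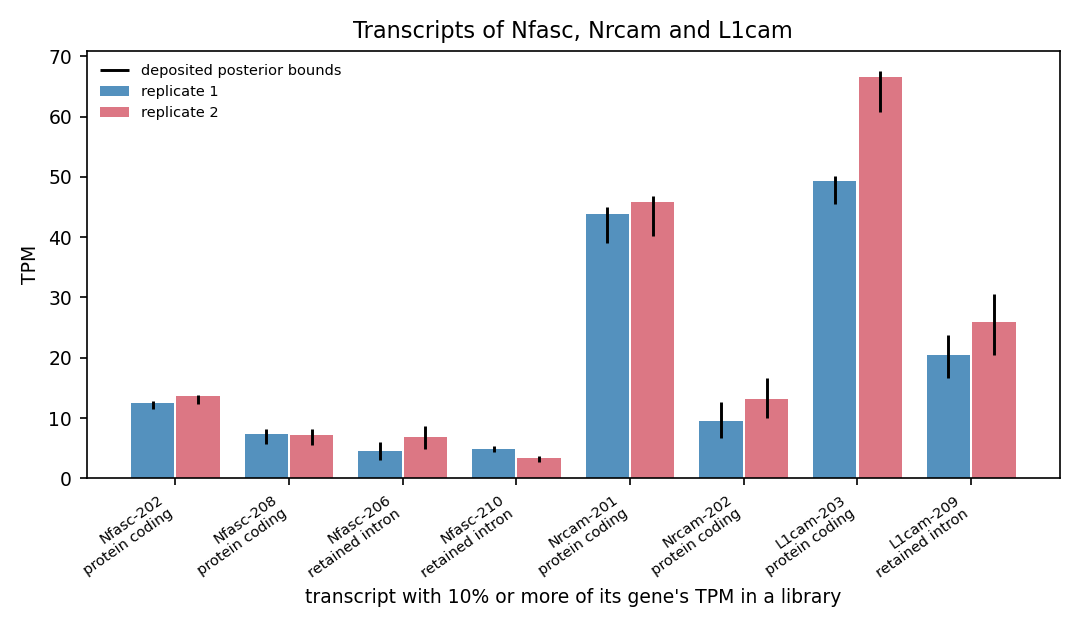
TPM of the Nfasc, Nrcam and L1cam transcripts that hold 10% or more of their gene's TPM in a library, in replicate 1 (blue) and replicate 2 (red), with the authors' posterior bounds (black lines). Nrcam-201 (43.8 and 45.9 TPM) exceeded Nrcam-202 (9.46 and 13.1 TPM) in both libraries, and the retained-intron model L1cam-209 reached 20.5 and 25.9 TPM.

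L1cam showed a contrast between its 2 short exons. The 15-base exon of the extracellular part was present in 99.5% of TPM in both libraries. L1cam-201, the coding transcript that lacks both short exons, stood at 0.29 and 0.38 TPM. The 12-base exon of the cytoplasmic part was present in 32.0% and 31.4% of the TPM of transcripts that span it. Among protein-coding transcripts alone its share was 5.50% and 6.65%, and by expected counts 9.74% and 10.6%.

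The share of the 12-base exon thus depended on which transcripts and which scale were counted. Most of its TPM was in L1cam-209, a retained-intron model of 705 bases with 4 exons, at 20.5 and 25.9 TPM from 251.9 and 235.3 counts. The coding transcript that holds it, L1cam-202, had 2.89 TPM in replicate 1 (deposited bounds 0.89 to 4.88) and 4.77 TPM in replicate 2 (1.03 to 7.28). The share among coding transcripts is uncertain to that extent. The leading transcript, L1cam-203, lacks it and had 49.4 and 66.6 TPM. Those coding models also differ in their first exon and their 3′ end, so no pair of coding models differed by this exon alone. Junction reads across the exon were not used here.

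Among the contactins, the leading transcripts were coding in all but Cntn5. Cntn1-204 stood at 48.8 and 46.6 TPM and Cntn1-202 at 15.8 and 8.43 TPM. They share a coding length of 3060 bases and differ in the first exon and the 3′ end. Cntn6-201 held 85.4% and 87.6% of its gene's TPM, and Cntn2-201 77.4% and 80.1%. Cntn3 had 1 annotated transcript.

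Cntn4 and Cntn5 were spread over more models. Cntn4-202, with a coding length of 3078 bases, had 15.0 and 17.4 TPM, and the shorter Cntn4-205, with 2115 bases, had 9.76 and 4.63 TPM. Cntn4-210, a non-coding model of 393 bases, had 7.72 and 6.42 TPM. The bounds of Cntn4-205, 7.40 to 11.3 in replicate 1 and 2.36 to 5.71 in replicate 2, did not overlap. In Cntn5, the 402-base retained-intron model Cntn5-203 had 13.3 and 15.1 TPM from 81.6 and 68.5 counts. The coding transcripts Cntn5-202 and Cntn5-204 had 7.94 and 10.0 TPM and 4.07 and 5.62 TPM. For Cntn5, fewer than 100 counts in each library therefore made up 52.5% and 49.1% of the gene's TPM.

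The RNAs for proteins that contactins and L1 family members bind were measured in the same libraries. All 7 contactin-associated genes, whose products pair with contactins in one membrane, reached 1 TPM in both libraries, with a median of 4.75 and 3.28 TPM. Cntnap2, the partner of Cntn2, was the highest at 42.2 and 22.5 TPM. Its ratio was 0.543 (0.508 to 0.581) by TMM and 0.794 by spike-in scaling, below 1 under both, while that of Cntn2 was above 1. Cntnap4 stood at 17.4 and 15.9 TPM. Cntnap1, the partner of Cntn1 at the paranode, was at 6.55 and 6.10 TPM, and Cntnap5b at 4.75 and 3.28 TPM. Of the 7 genes 3 (Cntnap2, Cntnap5a and Cntnap5b) were past 1.5-fold higher in replicate 1 by TMM and none by spike-in scaling. Of gene rows 8.53% and 2.36% were.

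The ankyrins, which bind L1 family proteins from inside, and the spectrins, which ankyrins bind, all reached 1 TPM, with a median of 73.0 and 72.3 TPM over 8 genes. Sptan1, the alpha spectrin of neurons, led at 228.2 and 268.1 TPM, followed by the beta spectrin gene Sptbn1 at 158.5 and 212.5 TPM. Ank3, encoding ankyrin-G of the axon initial segment, had 152.7 and 147.2 TPM, and Ank2, encoding ankyrin-B of axon shafts, had 120.4 and 109.4 TPM. Each was above every member of the L1 family in both libraries, except that Ank2 at 109.4 TPM lay below L1cam at 113.2 TPM in replicate 2. None of the 8 was past 1.5-fold by TMM, beside 10.7% of gene rows higher in replicate 2 and 8.53% the other way. By spike-in scaling 3, with Sptan1 and Sptbn1 among them, were past it higher in replicate 2, beside 44.1% of gene rows.

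**Figure D5:**
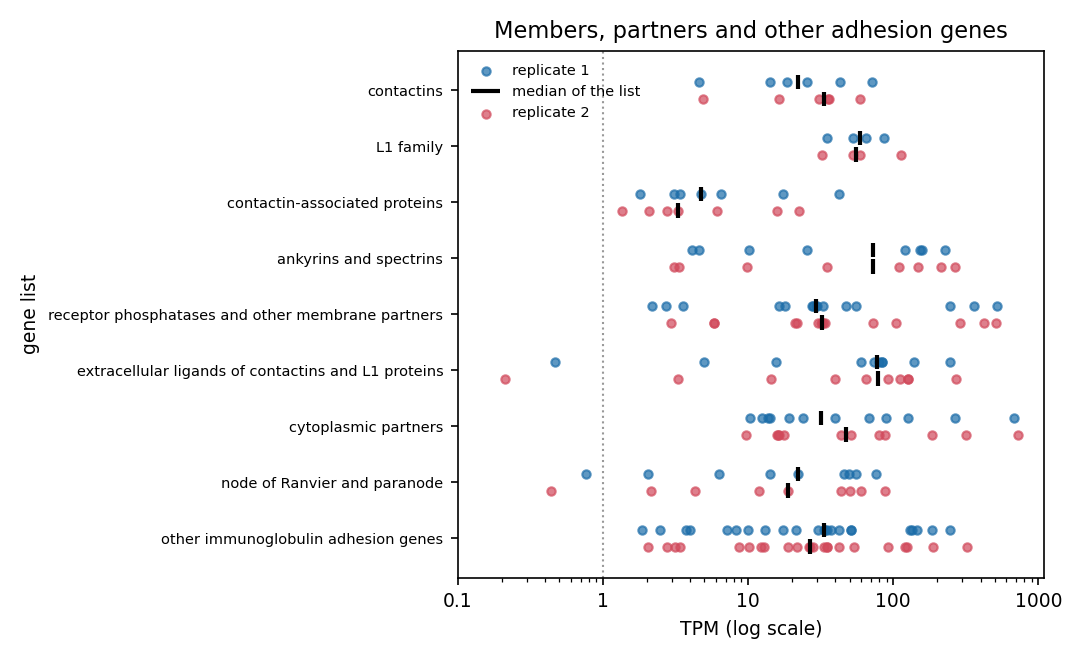
TPM (log scale) of every gene in the lists of members, binding partners and other immunoglobulin adhesion genes, in replicate 1 (blue) and replicate 2 (red), with black bars at each list's median and a dotted line at 1 TPM. The medians ran from 4.75 and 3.28 TPM for contactin-associated genes to 76.8 and 78.7 TPM for extracellular ligands.

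All 15 receptor phosphatases and other membrane partners reached 1 TPM, with a median of 29.5 and 32.1 TPM. The amyloid precursor family led, with Aplp1 at 521.8 and 512.2 TPM, App at 360.3 and 422.8 TPM and Aplp2 at 246.2 and 286.5 TPM. Of the 15, 3 were past 1.5-fold higher in replicate 2 by TMM, beside 10.7% of gene rows. These were the integrin subunit genes Itgb1, Itga5 and Itga1. By spike-in scaling 10 were, beside 44.1% of gene rows. Itgb1 stood at 55.4 and 104.4 TPM. Itga5, which pairs with it as a fibronectin receptor, stood at 2.17 and 5.79 TPM with a ratio of 2.50 (2.09 to 2.99). The meninges and fibroblast markers given above were higher in the same library, 11 of 11 past 1.5-fold, and their part in the integrin values was not tested.

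Of 10 extracellular ligands all but Gldn reached 1 TPM, with a median of 76.8 and 78.7 TPM. The growth factor Ptn led at 246.9 and 270.0 TPM, followed by the brain proteoglycan Ncan at 139.7 and 125.8 TPM. Mdk, a growth factor related to Ptn, had 74.1 and 126.6 TPM, and Agrn, which encodes a proteoglycan of synapses and basement membranes, had 79.4 and 111.0 TPM. By TMM 1 ligand (Mdk) was past 1.5-fold higher in replicate 2 and 2 (Tnc and Gldn) the other way, beside 10.7% and 8.53% of gene rows. By spike-in scaling the counts were 4 (Mdk, Agrn, Reln and Vcan) and 1 (Gldn), beside 44.1% and 2.36%.

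All 12 cytoplasmic partners reached 1 TPM, with a median of 31.9 and 47.5 TPM. Ap2m1, the clathrin adaptor subunit that L1cam binds through a tyrosine motif that its 12-base exon completes, had 681.5 and 730.3 TPM. Dcx, a microtubule protein of migrating neurons that binds Nfasc, had 268.4 and 318.6 TPM. Sdcbp, encoding syntenin, had 126.2 and 185.5 TPM, and the kinase gene Fyn had 89.7 and 87.5 TPM. Of the 12, 1 (Msn) was past 1.5-fold higher in replicate 2 by TMM, and 7 were by spike-in scaling. Of gene rows 10.7% and 44.1% were.

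Of 9 genes of the node of Ranvier and paranode all but Kcna2 reached 1 TPM, with a median of 22.1 and 18.8 TPM. Epb41l3, which links the paranodal complex to the skeleton, had 75.7 and 88.4 TPM. The sodium channel genes Scn3a and Scn2a had 55.4 and 60.4 TPM and 49.5 and 43.4 TPM. Of the 9, 2 (Kcnq3 and Kcna2) were past 1.5-fold higher in replicate 1 by TMM, beside 8.53% of gene rows. By spike-in scaling 3, with Epb41l3 and Scn3a among them, were past it higher in replicate 2, beside 44.1% of gene rows.

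Among 23 other immunoglobulin adhesion genes, all at 1 TPM or more, the median was 33.3 and 26.8 TPM. Ncam1 led at 246.5 and 320.9 TPM, above every contactin and L1 family gene in both libraries. Ntm, encoding the lipid-anchored neurotrimin, had 186.4 and 189.1 TPM. The synaptic adhesion genes Cadm1 and Cadm3 had 146.8 and 125.3 TPM and 134.1 and 121.1 TPM. Mcam, known from blood vessels and perivascular cells, had a ratio of 2.43 (2.15 to 2.74) at 7.12 and 18.8 TPM. It was the 1 gene of the 23 past 1.5-fold higher in replicate 2 by TMM, and 1 (Lsamp) was past it the other way. Of gene rows 10.7% and 8.53% were. By spike-in scaling 6 were past 1.5-fold higher in replicate 2 and none in replicate 1, beside 44.1% and 2.36% of gene rows.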

How the data were processed

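Total RNA of 2 neural tubes of 1 group was measured, with 1 library each. The texts deposited beside the files name mm10 and mouse GENCODE release 4. No source used here names the aligner, quantifier or strand setting, so reads of overlapping genes cannot be told apart. Per the file headers, the authors gave expected counts, which are reads apportioned to genes and transcripts without normalisation. TPM and FPKM, also per the file headers, were scaled by the authors for effective length and for depth. The percent columns give each transcript's part of its gene's TPM, per the file headers. Posterior means and bounds, deposited by the authors as score columns, describe how reads were split among transcripts.

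Symbols, transcript types, exons and coordinates came from GENCODE release 21 for GRCm38, matched by identifier. A symbol was found for 42462 gene rows and for 884 none was. Of the members' 61 transcripts, 58 had the same length in both releases. Expected counts were rounded to whole numbers. Ratios used TMM library sizes over gene rows (edgeR 4.0.16, R 4.3.3) and a prior count of 0.5, with exact Clopper-Pearson intervals (95%) on each pair of counts. These cover counting error only, and may be too narrow even for that, since amplified reads are not independent molecules. Exon shares divide the level of transcripts with an exon by that of all transcripts that span it. The ratio script was tested on simulated data. Spike-in RNA made up 3.31% and 2.29% of all counts.

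The members, the 20 gene lists and the rules were chosen with earlier results of these data known. The rule names all members, the 4 highest genes of each partner or adhesion list, list genes that differ 2-fold at a mean count of at least 100, and transcripts with 10% or more of their gene. Other list genes behind small counts, marker genes, sex-linked genes and the lower transcripts of Nfasc and L1cam fall outside the rule and were named after their values were seen. Alternatives were spike-in and DESeq2 1.42.0 scaling, TPM ratios, FPKM, posterior means, other thresholds, pseudocounts and prior counts, and leaving out each library. Sums over protein-coding transcripts or over those of at least 1000 bases, and the count of a longer Nfasc exon, were added after seeing the data. Some genes of the lists are counted in the list statistics but are not reported here by name.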

Additional observations from a re-analysis of the deposited data

How the results depend on the processing

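No paired analysis was possible because the labels give 1 group. By spike-in scaling the ratio of replicate 2 to replicate 1 turned above 1 for Cntn1 (1.163), Cntn3 (1.443), Cntn4 (1.358), Cntn6 (1.185), Chl1 (1.098) and Nfasc (1.337), and the number of members past 1.5-fold higher in replicate 2 became 4 (Cntn2, Cntn5, L1cam and Nrcam), beside 44.1% of gene rows. The cause was not tested. Cntn3 also turned above 1 by the deposited TPM (1.054), within its counting interval. With protein-coding transcripts only, the difference between family medians was 1.57 in place of 1.07 on the log2(TPM + 1) scale. By expected counts Nfasc-202 held 71.9% of its gene in place of 39.0% by TPM, since counts are not divided by length. At a threshold of 5 TPM, 3 contactin-associated genes were counted in place of 7. The other 29 recomputed values that answer a comparison kept their direction and stayed within 1 SD of the reported value or 1.5 times the reported count. Leaving out 1 of 2 libraries always keeps a mean within 1 SD, so for those values this outcome was fixed in advance. Among values outside these comparisons 177 stayed the same and 53 moved, with most levels on the FPKM scale among the latter. The difference between family medians ranged from 0.73 to 1.41 with 1 library left out. With 2 embryos, differences between these libraries cannot be told apart from differences in dissection or sex.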
